A study of Mus musculus with 6 samples.

Results

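Genes of the cell cycle and of DNA replication were examined in RNA from mammary gland slides of MMTV-FOXC1 transgenic and wildtype mice at lactation day 2. They were 42 genes chosen by name for their roles, running from the D cyclins of G1 to the motor proteins of mitosis, and all 42 were found by symbol among the 21950 genes of the deposited table. The transgenic mice carried a Myc-tagged human FOXC1 cDNA behind a viral promoter of mammary tissue (MMTV, from mouse mammary tumor virus), which per the study is active in luminal epithelium and depends on hormones. The wildtype mice had no transgene, and both groups were of strain FVB/NJ at postnatal week 11. Per the labels there were 3 samples a genotype with epithelial cells as their source, although the RNA was isolated from tissue slides. The transgenic line used for sequencing, and whether each sample was a separate animal, are not given in the sources used here.

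Cell division is driven by cyclins and their partner kinases. D cyclins with Cdk4 and Cdk6 phosphorylate the retinoblastoma protein in G1, which frees E2F factors to switch on genes for DNA synthesis, and cyclin E with Cdk2 completes entry into S phase. The MCM helicase opens the DNA at replication origins, Pcna clamps polymerases onto it, and ribonucleotide reductase and thymidylate synthase supply nucleotides. Later genes, for cyclins A and B, Cdk1 and the mitotic spindle, are switched on in G2 by the MuvB complex with B-Myb and Foxm1. In the mammary gland, alveolar epithelium divides mainly in pregnancy, and division slows as milk secretion begins.

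The values were RPKM, reads scaled to exon length and to the size of the library. Read numbers were recovered from the RPKM steps, and all 18308 genes above 0 gave whole numbers within 1e-05 reads. The depth was 11770867 to 11775866 reads in the transgenic columns and 3492861 to 3496335 reads in the wildtype columns. Columns of the same genotype varied about as much as sampling alone would give, with a chi-square per degree of freedom of 1.09 in transgenic mice (16350 genes) and 1.03 in wildtype mice (13343 genes). Over the 42 genes these values were 1.44 in transgenic mice, or 1.13 without Cdc25c and Ccnb2, and 1.09 in wildtype mice (41 genes with enough reads). By the value over all genes, columns of a genotype were counted as 1 sample, so that n = 1 for each genotype, no test of the genotypes was possible, and the spread between animals is unknown. Milk protein genes took 0.190% to 0.192% of transgenic reads over genes and 40.7% to 40.8% of wildtype reads, which lowers the RPKM of every other gene in wildtype mice. The main change is relative: log2(RPKM + 1) in transgenic minus wildtype mice. Transgenic values were first divided by a median-of-ratios size factor of 2.30, a shift of 1.201 on the log2 scale. The change on the deposited library-size scale is given beside the relative one. For 18 of the 42 genes these 2 scales gave opposite signs. With milk protein genes left out of the library totals the factor was 1.68, a shift of 0.752. The size factor thus shifts values by more than milk reads alone would. A gene was called by size alone, past 2 on the log2 scale, among the 13118 genes that averaged 2 RPKM or more in transgenic or wildtype mice. The 95% intervals below are for log2 ratios after size factors without a pseudocount, and they cover counting error only. The pseudocount of 1 RPKM draws the relative change toward 0 at low RPKM, so that this change can lie outside the interval. For Bub1 the log2 ratio was -1.72 and the relative change -0.44, and for Ccnd2 they were 2.25 and 1.92.

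By relative change, which the pseudocount draws toward 0 for genes of low RPKM, most cell cycle genes were near the middle of the transcriptome. A proliferation marker, Mki67, was far below it and a D cyclin, Ccnd2, far above it. Genes of the MCM helicase were mostly above the middle, and genes of G2 and mitosis mostly below it. Of the 42 genes, 33 passed the RPKM filter. On the relative scale 0 of these were called higher in transgenic mice and 1, Mki67, was called lower, while 3.11% of the 13118 genes were called higher and 2.98% lower. On the library-size scale 1, Ccnd2, was called higher and 0 were called lower, against 16.1% and 1.23% of all genes. The median relative change was -0.06 over the 33 genes and -0.23 over all 42, against 0.06 over the 13118 genes. On the library-size scale the medians were 0.83, 0.62 and 1.06.

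The 9 genes under the filter were Ccne1, Ccne2, Ccnb1, Cdk1, Cdc25c, Bub1, Mad2l1, Cenpe and Cenpf, and their values rest on fewer reads. Of the 33 genes that passed, 14 had a relative change above 0 and 19 below 0, while 52.8% of the 13118 genes were above 0 and 47.2% below. The counting interval lay above 0 for 8 and below 0 for 14 of them, against 43.2% and 38.4% of all genes. On the library-size scale 28 were above 0 and 5 below, against 87.7% and 12.3% of all genes, and the interval lay above 0 for 26 and below 0 for 4, against 83.7% and 9.75%. Of all 42 genes, 16 had a relative change above 0 and 26 below. As deposited, the transgenic columns were all above the wildtype columns for 30 of the 42 genes and all below for 5, namely E2f1, Rrm2, Ccna2, Aurka and Mki67, and the columns overlapped for 7. Among the 33 genes these numbers were 25, 5 and 3, and over all 13118 genes the columns were apart for 93.3%, with transgenic above for 83.6% and below for 9.67%.

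**Figure D1:**
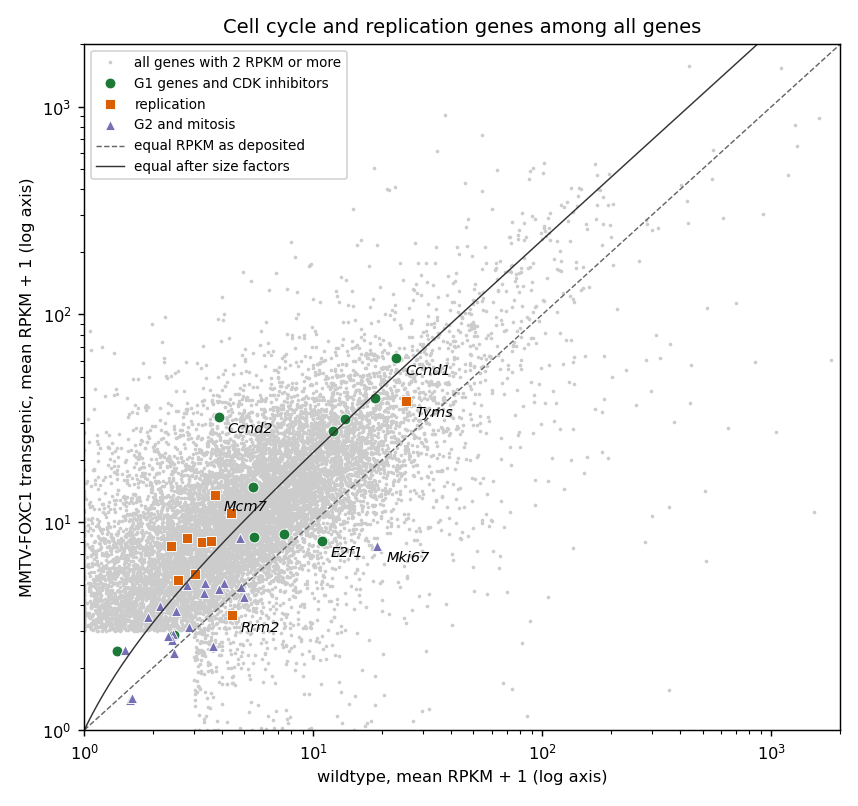
Mean RPKM + 1 in transgenic mice (vertical log axis) against wildtype mice (horizontal log axis) for the 13118 genes that passed the filter (grey) and the 42 cell cycle genes (G1 genes and inhibitors as green circles, replication genes as orange squares, G2 and mitosis genes as purple triangles), with 19 genes beyond 2000 not drawn. The dashed line marks equal RPKM and the solid curve equality after size factors, and Ccnd2 (31.3 and 2.86 RPKM) lies far above both while Mki67 (6.68 and 18.0 RPKM) lies far below both.

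Together the 42 genes summed to 387 to 389 RPKM in the transgenic columns and 190 to 203 RPKM in the wildtype columns. The transgenic sum was 1.98 times the wildtype sum as deposited and 0.860 times after size factors. They took 0.1988% to 0.2003% of transgenic reads over genes and 0.104% to 0.110% of wildtype reads. With the reads of 7 milk protein genes left out of the total, these shares were 0.199% to 0.201% in transgenic mice and 0.175% to 0.185% in wildtype mice. The share of RNA spent on the 42 genes thus differed far less once milk transcripts were set aside. Its direction depended on the scaling, as the transgenic share stayed higher without milk reads but the transgenic sum was lower after size factors.

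Mki67, whose protein Ki-67 coats mitotic chromosomes and marks cycling cells, had 6.65, 6.64 and 6.75 RPKM in the transgenic columns, against 17.4, 18.0 and 18.7 RPKM in the wildtype columns. All transgenic columns were below all wildtype columns. The level was 0.370 times the wildtype level as deposited and 0.161 times after size factors, on 2378 and 1905 reads. Its relative change was -2.29 and its library-size change -1.31, and the counting interval of the log2 ratio was -2.72 to -2.55. It stood at percentile 2.23 of the 13118 genes. The gene lies on chromosome 7 of GRCm38 (135689784 to 135716361, minus strand) and shares 0% of its exonic bases with another gene. By staining of Ki-67 protein, the study reported the other direction, a higher percentage of positive epithelial cells in transgenic mice at lactation. That is a share of epithelial cells, whereas the values here are RNA from tissue slides, and the difference in direction was not tested.

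Top2a, the topoisomerase that untangles DNA before and during mitosis and is often read together with Mki67, had 3.73, 3.90 and 4.05 RPKM in transgenic columns and 4.13, 3.42 and 3.94 RPKM in wildtype columns. The columns overlapped. Its relative change was -0.84, with an interval of -1.35 to -1.003 for the log2 ratio, and its library-size change was 0.02. Within a column, where scaling cancels, Mki67 had 1.72 ± 0.059 times the RPKM of Top2a in transgenic mice and 4.74 ± 0.52 times in wildtype mice (SD over 3 columns). The transgenic ratio was 0.362 times the wildtype ratio. Mki67 over Pcna, the replication clamp, was 0.672 ± 0.078 in transgenic and 5.603 ± 1.70 in wildtype columns.

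Promoters are shown for Mki67 and Aurka, which had the lowest relative changes of the G2 and mitosis genes, and for Mcm3 and Mcm7, which had the highest changes of the replication genes, to set the early and late elements of cell cycle promoters side by side. The sequences are from RefSeq (GRCm38.p6) and run 5′ to 3′ on the gene's strand, 250 bases before to 50 bases after the start. Capitals mark the letters of 3 motifs searched on both strands: the cell cycle homology region or CHR (TTTGAA or TTCGAA), to which MuvB binds, the CCAAT box, to which NF-Y binds, and E2F sites (TTTCCCGC, TTTCGCGC, TTTGCCGC or TTTGGCGC).
Mki67, chr7:135716330-135716629, minus strand: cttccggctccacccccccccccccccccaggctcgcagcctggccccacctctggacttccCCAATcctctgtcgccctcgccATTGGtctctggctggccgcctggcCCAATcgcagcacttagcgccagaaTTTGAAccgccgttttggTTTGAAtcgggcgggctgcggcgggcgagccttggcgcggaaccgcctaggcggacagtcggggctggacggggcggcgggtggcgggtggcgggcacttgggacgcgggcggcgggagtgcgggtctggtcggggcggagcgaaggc
Aurka, chr2:172370521-172370820, minus strand: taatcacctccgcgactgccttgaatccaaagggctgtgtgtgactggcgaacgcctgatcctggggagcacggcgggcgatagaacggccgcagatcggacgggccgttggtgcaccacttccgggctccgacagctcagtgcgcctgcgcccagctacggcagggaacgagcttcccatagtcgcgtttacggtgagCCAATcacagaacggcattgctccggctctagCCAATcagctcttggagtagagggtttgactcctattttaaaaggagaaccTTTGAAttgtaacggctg
Mcm3, chr1:20820263-20820562, minus strand: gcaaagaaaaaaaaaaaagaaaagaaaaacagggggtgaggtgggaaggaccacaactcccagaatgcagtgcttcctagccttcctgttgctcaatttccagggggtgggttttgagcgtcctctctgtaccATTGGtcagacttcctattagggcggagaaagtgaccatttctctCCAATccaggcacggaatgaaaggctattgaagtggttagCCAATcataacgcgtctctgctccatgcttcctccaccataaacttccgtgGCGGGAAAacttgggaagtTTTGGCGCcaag
Mcm7, chr5:138171834-138172133, minus strand: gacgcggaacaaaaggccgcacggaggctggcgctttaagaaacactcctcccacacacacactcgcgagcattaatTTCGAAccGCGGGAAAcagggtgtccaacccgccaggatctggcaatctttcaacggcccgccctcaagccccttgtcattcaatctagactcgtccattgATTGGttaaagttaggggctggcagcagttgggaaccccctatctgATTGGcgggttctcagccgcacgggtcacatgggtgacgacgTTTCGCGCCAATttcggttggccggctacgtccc

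The Mki67 window held 2 CHR and 3 CCAAT matches and 0 E2F matches, and the Aurka window held 1, 2 and 0. The Mcm3 window held 0 CHR, 3 CCAAT and 2 E2F matches, and the Mcm7 window held 1, 3 and 2, of which an E2F match and a CCAAT match overlap. A second RefSeq window of Mcm7, which held 1 CCAAT match, is not shown. Promoters were matched by symbol for 33 of the 42 genes, and Ccnd1, Ccnd2, Ccne2, Ccna2, Cdc25c, Aurkb, Kif20a, Tpx2 and Mcm4 had no entry. Of 16 matched genes of G2 and mitosis, 12 held a CHR and 14 a CCAAT box, and 1 held an E2F site. Of 9 replication genes, 2 held a CHR, 8 a CCAAT box and 4 an E2F site. Of 8 G1 genes and inhibitors, 0 held a CHR, 3 a CCAAT box and 1 an E2F site. Among 27025 genes with a promoter window, 21.7% held a CHR, 41.1% a CCAAT box and 2.60% an E2F site. A match of letters is a description and no measure of binding.

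Genes of G2 and mitosis were mostly below the middle of the transcriptome. Of the 21 genes, 3 had a relative change above 0 and 18 below, with a median of -0.44. Of the 14 that passed the filter, 2 were above and 12 below, against 52.8% and 47.2% of all genes, with a median of -0.47 on the relative scale. As deposited the direction was the other way, with 15 of the 21 above 0 and a median of 0.39 over the 14, below the 1.06 of all genes. Of the 14, 11 were above 0 as deposited, against 87.7% of all genes. The counting interval of the ratio after size factors lay above 0 for 0, below 0 for 15 and across it for 6 of the 21. Among the 14 it lay above 0 for 0 and below 0 for 9, against 43.2% and 38.4% of all genes. Their RPKM summed to 61.4 to 62.5 in transgenic columns and 55.2 to 58.6 in wildtype columns, which was 0.468 times after size factors. Without Mki67 the sum was 1.40 times the wildtype sum as deposited and 0.609 times after size factors, and the median over 20 genes was -0.43. With the reads of milk genes left out of the library totals, 20 of all 42 genes were below 0 rather than 26.

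Among cyclins and kinases of G2 and M, Aurka had the lowest change. This kinase, which matures the centrosomes and builds the spindle, had 1.70, 1.66 and 1.26 RPKM in transgenic columns and 2.63, 3.43 and 1.83 RPKM in wildtype columns, with no overlap. Its relative change was -1.12, its library-size change -0.52, and its interval -2.40 to -1.54, on 136 and 69 reads. Ccna2, cyclin A2 of S phase and G2, had 3.53, 3.04 and 3.49 RPKM in transgenic columns and 3.99, 3.84 and 4.07 RPKM in wildtype columns, with changes of -1.01 (relative) and -0.19 (library size). Its exons share 12.5% of their bases with another gene, Exosc9, so some reads may belong to that gene.

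The other genes of this group averaged 4.10 RPKM or less in both genotypes. Plk1, a kinase of mitotic entry, averaged 4.10 RPKM in transgenic and 3.07 RPKM in wildtype mice, with a relative change of -0.55. The relative changes of Ccnb1 and Ccnb2, the B cyclins, were -0.63 and -0.56, and that of their partner Cdk1 was -0.42, all on 226 reads or fewer per genotype. Cdc25c, the phosphatase that activates Cdk1, had 30, 9 and 42 reads in the transgenic columns and a relative change of -0.44. Ccnb2 had 24, 51 and 42 reads there. The transgenic columns of this pair matched each other poorly, at a chi-square per degree of freedom of 10.3 and 4.85, so their values are among the least certain of the 42. The counting interval lay below 0 for all 7 genes of the G2 and M group, of which 4 passed the filter. Over all genes that passed it, 38.4% had such an interval.

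Spindle checkpoint genes did not move as a block. Bub1b, the BubR1 kinase-like checkpoint protein, had 2.64, 2.52 and 2.36 RPKM in transgenic columns and 0.74, 1.14 and 0.80 RPKM in wildtype columns, with a relative change of 0.14 and an interval of -0.18 to 0.80. Its paralog Bub1 had a relative change of -0.44 on 66 and 28 reads, with a log2 ratio of -1.72 and an interval of -2.37 to -1.02. Mad2l1, which holds back the anaphase-promoting complex, and Cdc20, the activator that it captures, had relative changes of -0.46 and -0.27.

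Centromere and passenger complex genes had relative changes from -0.39 to 0.10, with the interval below 0 for 3 of the 5 and above 0 for 0. Cenpa, the histone variant that marks centromeres, averaged 7.44 RPKM in transgenic and 3.78 RPKM in wildtype mice, the highest level of the group, with a relative change of -0.18. The kinetochore proteins Cenpe and Cenpf had relative changes of 0.10 and -0.37. Of the chromosomal passenger complex, Birc5 (survivin) had a change of -0.39 and its kinase Aurkb one of 0.09. The intervals of Cenpa (-0.43 to -0.02), Cenpf (-0.94 to -0.51) and Birc5 (-0.94 to -0.24) lay below 0. Those of Cenpe and Aurkb spanned it. Among the 3 genes that passed the filter the interval lay below 0 for 2, against 38.4% of all genes. Of the spindle proteins, the motor Kif11 had a relative change of -0.56 with an interval of -1.08 to -0.55. The cytokinesis motor Kif20a and the spindle assembly factor Tpx2 had changes of -0.04 and -0.19, both with intervals across 0. Kif20a shares 29.3% of its exonic bases with Cdc23, so its reads cannot be fully told apart from that gene.

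**Figure D2:**
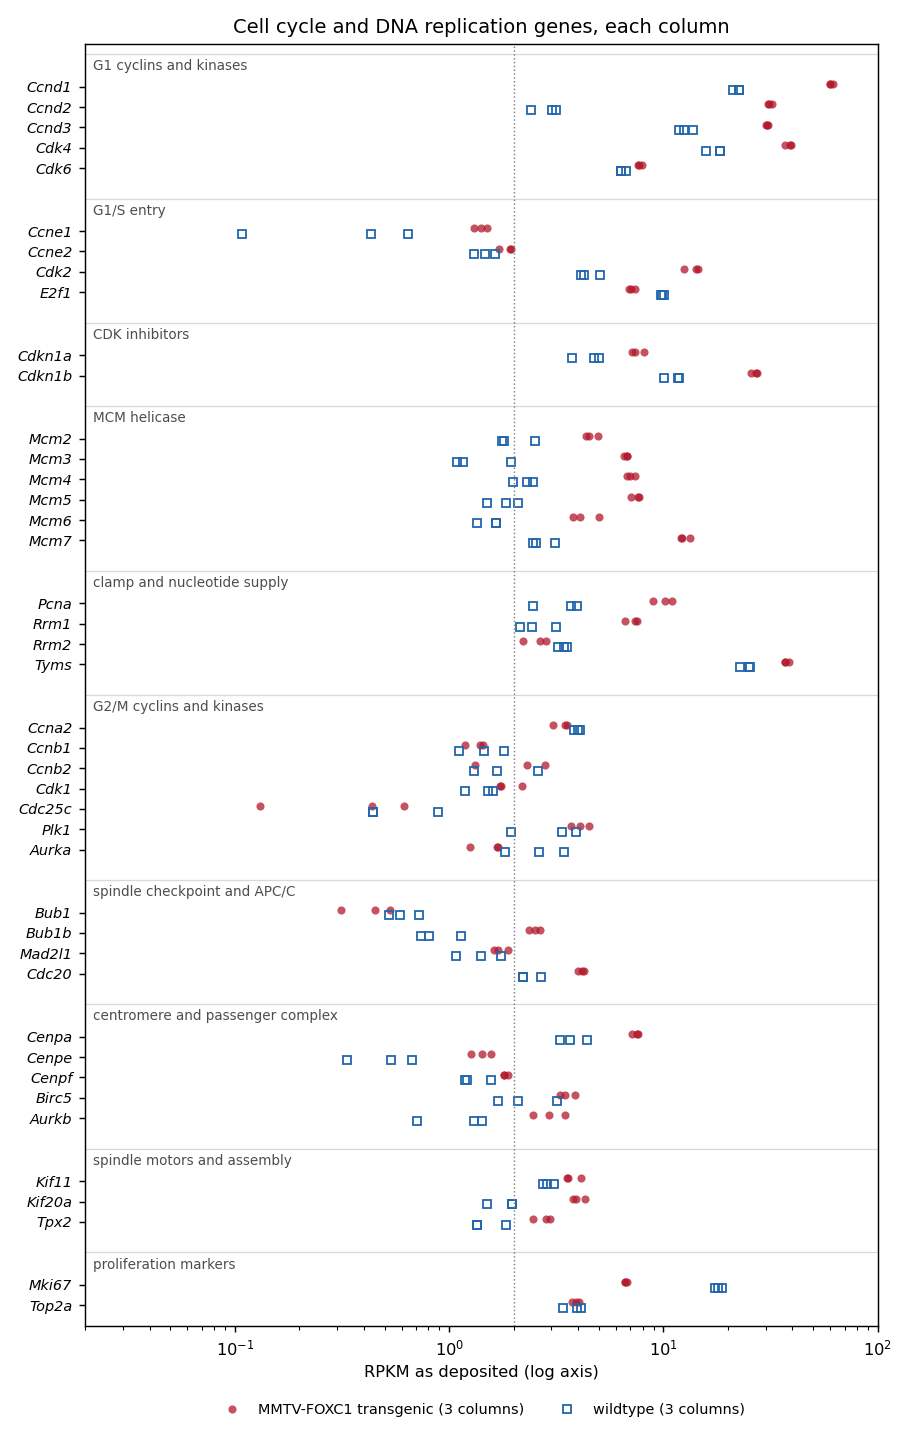
RPKM as deposited (horizontal log axis) of the 42 genes in each transgenic column (filled red circles) and each wildtype column (open blue squares), by role, with a dotted line at the filter of 2 RPKM. The 3 columns of a genotype lie close together except at low levels, and Ccnd2 and Mki67 show wide gaps in opposite directions.

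The MCM helicase genes were above the middle of the transcriptome in all but 1 case. Their RPKM summed to 41.9 to 43.3 in transgenic columns and 11.2 to 12.4 in wildtype columns, 3.62 times as deposited and 1.57 times after size factors. Of the 6 subunits, 5 had a relative change above 0, the median was 0.46, and the interval lay above 0 for 4. Over all genes 52.8% had a change above 0 and 43.2% an interval above 0. Mcm7 had 12.1, 12.1 and 13.3 RPKM in transgenic columns and 2.47, 2.53 and 3.12 RPKM in wildtype columns, with a relative change of 0.79 and an interval of 0.74 to 1.28. Mcm3 had 6.72, 6.57 and 6.75 RPKM in transgenic columns and 1.09, 1.16 and 1.94 RPKM in wildtype columns, with a relative change of 0.70 and an interval of 0.66 to 1.48. No transgenic column of either gene overlapped a wildtype column. Mcm5 and Mcm4 followed at 0.59 and 0.32, Mcm6 was at 0.16 and Mcm2 at -0.01, the last pair with intervals across 0. The transgenic columns of Mcm6 matched each other less well than those of the other MCM genes, at a chi-square per degree of freedom of 5.15. Mcm7 shares 12.6% of its exonic bases with neighbours, namely Cops6, Ap4m1 and the microRNA genes Mir25 and Mir93.

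Pcna had 11.0, 10.2 and 8.91 RPKM in transgenic columns and 3.71, 3.95 and 2.47 RPKM in wildtype columns, with a relative change of 0.29. The subunits of ribonucleotide reductase, which makes deoxynucleotides, had relative changes of opposite sign. Rrm1, the large catalytic subunit, averaged 7.17 RPKM in transgenic and 2.58 RPKM in wildtype mice, with a relative change of 0.20 and an interval of -0.01 to 0.57. Rrm2, the small subunit that is made mainly in S phase, had 2.66, 2.20 and 2.83 RPKM in transgenic columns and 3.54, 3.43 and 3.21 RPKM in wildtype columns. Its relative change was -1.06, its library-size change -0.30 and its interval -1.96 to -1.24. Rrm1 made up 73.7% ± 2.91 of the RPKM of the pair in transgenic columns and 42.9% ± 4.29 in wildtype columns (SD over 3 columns), a share that no scaling alters. Tyms, thymidylate synthase, had the highest RPKM of the replication genes in both genotypes, 37.5 in transgenic and 24.4 in wildtype mice, with a relative change of -0.55. The annotation lists pseudogene copies of Tyms and Pcna, and of the cyclins Ccnd3, Ccnb1 and Ccnb2, so part of their reads may come from or be lost to these.

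Over the 10 replication genes the median relative change was 0.25, with 7 above 0 and 3 below, against 52.8% and 47.2% of all genes. Their sum was 2.19 times the wildtype sum as deposited and 0.954 times after size factors. Without Tyms, the gene with the highest RPKM among them, these values were 2.95 and 1.28, so the direction after size factors depended on that gene. For G2 and mitosis genes without Mki67 these values were 1.40 and 0.609. The contrast was wider for the MCM genes alone, the replication group with the highest median, and was also seen within columns. The MCM sum was 0.689 ± 0.017 times the sum of G2 and mitosis genes in transgenic columns and 0.205 ± 0.017 times in wildtype columns, a 3.36-fold difference. Without Mki67 it was 0.772 ± 0.020 times in transgenic and 0.2998 ± 0.034 times in wildtype columns, a 2.57-fold difference. No column of a genotype reached the other genotype's range in either ratio, but the columns of a genotype were counted as 1 sample. The spread shown is thus not taken as that between animals, which is unknown.

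**Figure D3:**
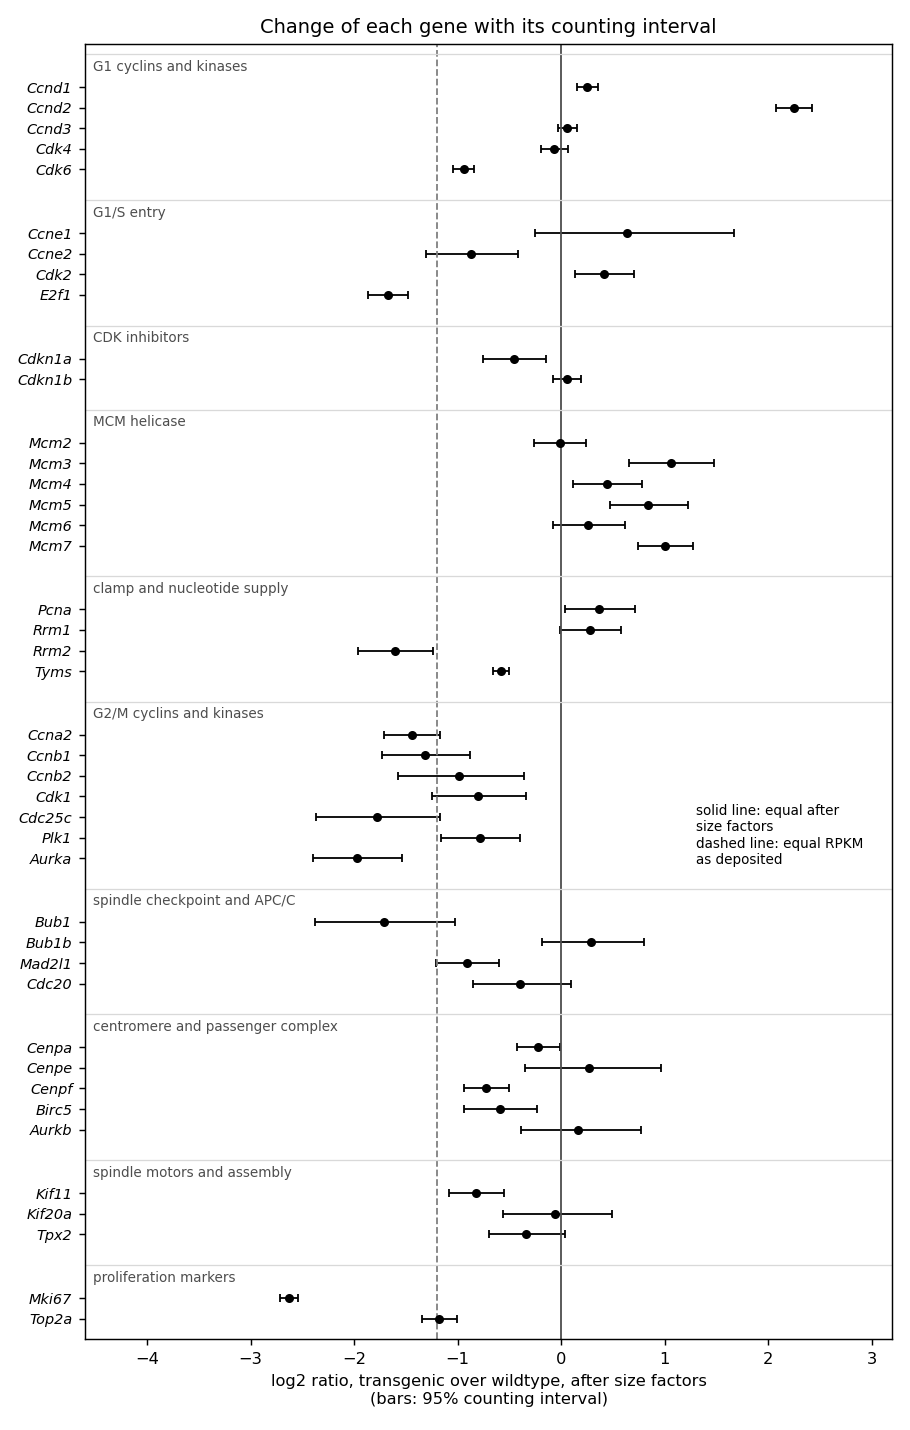
log2 ratio of transgenic over wildtype RPKM after size factors, without a pseudocount, for each of the 42 genes (points) with its 95% counting interval (bars), by role. The solid line marks equality after size factors and the dashed line equal RPKM as deposited, and the intervals of 4 MCM genes lie to the right of the solid line while none of the 21 genes of G2 and mitosis has an interval wholly to its right.

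Of the G1 genes, Ccnd2 stood apart. Cyclin D2 had 32.0, 30.7 and 31.2 RPKM in transgenic columns and 3.15, 3.03 and 2.42 RPKM in wildtype columns. The transgenic columns were all far above the wildtype columns. The level was 10.9 times the wildtype level as deposited and 4.75 times after size factors, on 10333 and 281 reads, with an interval of 2.08 to 2.42 for the log2 ratio. Its relative change was 1.92, just inside the size threshold and at percentile 96.4 of all genes, and its library-size change was 3.06. With a pseudocount of 0.5 in place of 1 the relative change was 2.07, past the threshold. The gene lies on chromosome 6 of GRCm38 (127125162 to 127152193, minus strand), and other genes overlap 7.86% of its exonic length.

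The other D cyclins did not differ much from the middle of the transcriptome. Ccnd1, the D cyclin needed for alveolar growth in mice, had 59.7, 60.2 and 61.6 RPKM in transgenic columns and 22.6, 22.4 and 21.1 RPKM in wildtype columns, with changes of 0.24 (relative) and 1.41 (library size). Ccnd3 had 30.2, 30.4 and 30.7 RPKM in transgenic columns and 13.8, 12.5 and 11.8 RPKM in wildtype columns, with changes of 0.05 and 1.197. Both were higher in every transgenic column as deposited. Within the family, Ccnd2 made up 25.6% ± 0.55 of the summed RPKM in transgenic columns and 7.59% ± 0.66 in wildtype columns (SD over 3 columns). Ccnd1 made up 49.5% ± 0.49 in transgenic and 58.7% ± 1.304 in wildtype columns, the most abundant D cyclin in both genotypes. Exons of another gene overlap 23.4% of the exonic length of Ccnd1. Ccnd3 made up 24.9% ± 0.16 and 33.8% ± 0.97, so that it was near the level of Ccnd2 in transgenic mice and well above it in wildtype mice.

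**Figure D4:**
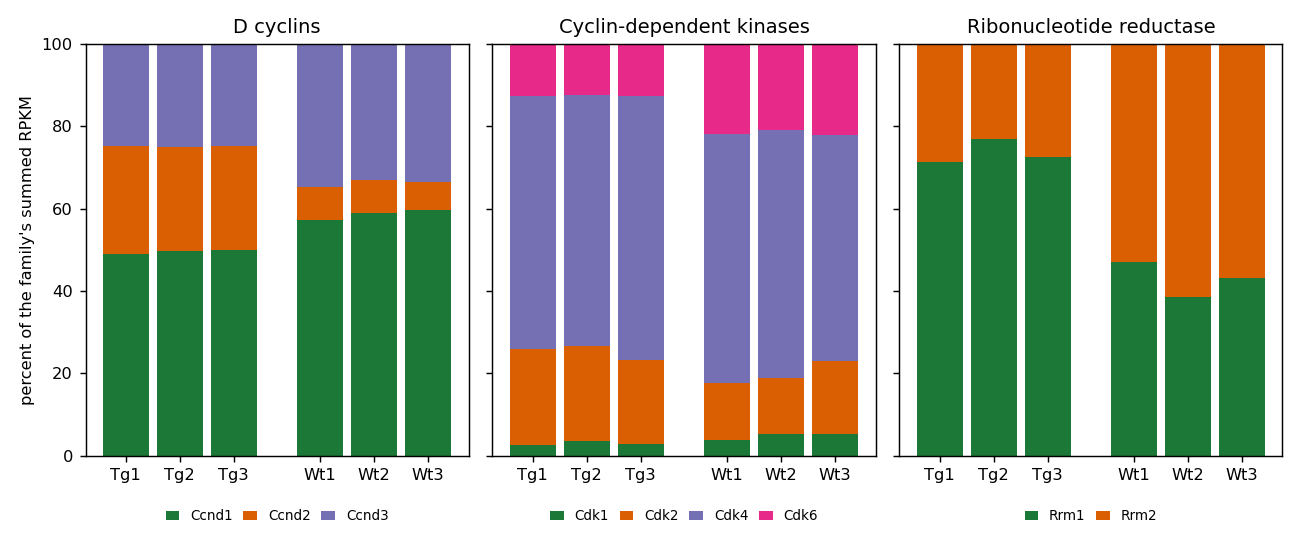
Share of each gene in the summed RPKM of its family (vertical axis, percent) for D cyclins, cyclin-dependent kinases and ribonucleotide reductase, with 1 stacked bar for each transgenic column (Tg1 to Tg3) and wildtype column (Wt1 to Wt3). Ccnd2 holds 25.6% of the D cyclin RPKM in transgenic columns and 7.59% in wildtype columns, and Rrm1 holds 73.7% and 42.9% of the reductase pair.

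The kinases of G1 were unequally changed. Cdk4 averaged 38.4 RPKM in transgenic and 17.5 RPKM in wildtype mice, with a relative change of -0.06, and its exons overlap those of Tspan31 over 19.7% of their length. Cdk6 averaged 7.73 RPKM in transgenic and 6.47 RPKM in wildtype mice, with a relative change of -0.78 and an interval of -1.05 to -0.84. Cdk4 was 4.97 ± 0.14 times Cdk6 in transgenic columns and 2.703 ± 0.199 times in wildtype columns. Cdk2, the kinase of S phase entry, averaged 13.7 RPKM in transgenic and 4.47 RPKM in wildtype mice, with a relative change of 0.35 and an interval of 0.14 to 0.71. Of the 4 cyclin-dependent kinases, Cdk2 held 22.2% ± 1.60 of the RPKM in transgenic columns and 15.02% ± 2.29 in wildtype columns. Cdk6 held 12.5% ± 0.11 in transgenic and 21.7% ± 0.63 in wildtype columns.

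E2f1, the E2F factor that activates replication genes, had 7.06, 6.89 and 7.38 RPKM in transgenic columns and 10.1, 9.78 and 9.79 RPKM in wildtype columns. All transgenic columns were lower. Its relative change was -1.41, at percentile 6.51 of all genes, its library-size change -0.42 and its interval -1.87 to -1.48. Of the E cyclins, Ccne1 averaged 1.40 RPKM in transgenic and 0.394 RPKM in wildtype mice on 132 and 11 reads, with a relative change of 0.21. Ccne2 averaged 1.86 RPKM in transgenic and 1.47 RPKM in wildtype mice, with a relative change of -0.45. E2f1, Mki67, Aurka, Rrm2 and Ccna2 were the 5 of the 33 genes with a relative change below -1, and Ccnd2 was the 1 gene above 1, against 12.3% and 15.5% of all genes. E2f1, Rrm2, Aurka and Mki67 also had an interval below equality on the library-size scale, as did 9.75% of all genes.

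Of the inhibitors that bind cyclin-kinase complexes, Cdkn1a (p21) had 8.14, 7.11 and 7.37 RPKM in transgenic columns and 4.76, 5.02 and 3.73 RPKM in wildtype columns, with changes of -0.36 (relative) and 0.63 (library size). Cdkn1b (p27) had 25.7, 27.0 and 27.2 RPKM in transgenic columns and 11.6, 10.05 and 11.8 RPKM in wildtype columns, with changes of 0.05 and 1.19. Both were higher in every transgenic column as deposited. The ratio of Cdkn1b to Cdkn1a was 3.55 ± 0.34 in transgenic and 2.53 ± 0.58 in wildtype columns, and the ranges of the columns nearly met, at 3.16 in the lowest transgenic and 3.15 in the highest wildtype column.

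A wider list of 105 further genes of replication and the cell cycle also had few large changes. Its origin group and its polymerase and fork group had medians somewhat above that of its mitotic genes, and its nucleotide enzymes had a median below it. Among genes that passed the filter, the median relative change was -0.10 for origin licensing and firing and -0.17 for polymerases and fork. It was -0.57 for nucleotide enzymes and -0.27 for other mitotic genes. Of the 105 genes, 76 passed the filter, and 0 were called higher or lower on the relative scale, against 3.11% and 2.98% of all genes. Of the 76, 29 were above 0 and 47 below, against 52.8% and 47.2% of all genes. Their median was -0.23, against 0.06. On the library-size scale 1, Cdkn1c, was called higher and 0 lower, against 16.1% and 1.23% of all genes. The median there was 0.71, against 1.06. Among 17 genes that license and fire origins, Gins3, a subunit of the GINS part of the helicase, had 1.61 RPKM in transgenic and 4.31 RPKM in wildtype mice (relative change -1.64). Orc6, of the origin recognition complex, had 3.19 RPKM in transgenic and 0.173 RPKM in wildtype mice (1.02), where the wildtype value rests on 3 reads. Among polymerase and fork genes, Fen1, the flap nuclease, had 3.64 RPKM in transgenic and 7.60 RPKM in wildtype mice (-1.74). Pold1, the catalytic subunit of polymerase delta, had 5.20 RPKM in transgenic and 0.673 RPKM in wildtype mice (0.96). Replication genes thus ran from the lowest change of the wider list, that of Fen1, to values near 1.

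Of the E2F, RB and MuvB genes, Lin54, the MuvB subunit that binds the CHR, had 5.97 RPKM in transgenic mice, 0.853 times the wildtype level (relative change -1.15), and Lin37 had 8.94 RPKM in transgenic and 2.25 RPKM in wildtype mice (0.59). Of the inhibitors, Cdkn1c (p57) had 12.1 RPKM in transgenic and 0.593 RPKM in wildtype mice, on 827 and 12 reads, with changes of 1.98 (relative) and 3.04 (library size). All 4 inhibitors of that group that passed the filter were above 0 on both scales, as were 52.8% (relative) and 87.7% (library size) of all genes. The lowest was Cdkn2c (p18) at 0.29 and 1.33. Among nucleotide enzymes the range ran from Dck at -0.70 to Dut at 0.43, and among CDC25, WEE1 and CDK7 genes from Cdc25a at -0.79 to Cdc25b at 0.47. Among other mitotic genes it ran from Spc25, a kinetochore subunit, at -1.19 to Mad1l1, a checkpoint protein, at 0.84.

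RNA of cell type markers also differed between genotypes, and in bulk tissue fewer cells of a type and less RNA per cell cannot be told apart. All 7 milk protein genes were called lower in transgenic mice on both scales, with a summed level of 475 to 478 RPKM in transgenic and 114657 to 115074 RPKM in wildtype columns. Of the B cell markers, Cd79a averaged 68.7 RPKM in transgenic and 0.196 RPKM in wildtype mice, and Pax5 averaged 11.99 RPKM in transgenic and 0.0215 RPKM in wildtype mice. Of 7 T cell markers 4 were called higher on the relative scale, against 3.11% of all genes. The 7 summed to 188 to 198 RPKM in transgenic and 10.1 to 11.9 RPKM in wildtype columns. Of 8 adipocyte markers 7 and of 6 fibroblast markers 5 were called higher, with sums of 2097 to 2112 RPKM and 1173 to 1175 RPKM in transgenic columns, against 104 to 112 RPKM and 66.1 to 68.8 RPKM in wildtype columns. Of 5 germinal centre B cell markers 0 were called in either direction, and 1 of 7 macrophage, 0 of 7 basal and 0 of 6 endothelial markers were called higher. Of 10 luminal markers 1 was called higher, with sums of 475 to 477 RPKM in transgenic and 99.1 to 106 RPKM in wildtype columns. The transgenic sum was 4.68 times the wildtype sum as deposited and 2.04 times after size factors. The relative change was above 0 for 8 luminal markers and below 0 for 2, Epcam (-0.23) and Cldn7 (-0.99), against 52.8% and 47.2% of all genes. Of the luminal markers, Cldn4, the gene called higher, had 2 reads and Elf3 averaged 0.602 RPKM in wildtype mice. The part of these marker differences in the levels of Ccnd2, Mki67 and the other cell cycle genes was not tested. Mouse Foxc1 had 9.45, 9.56 and 8.21 RPKM in transgenic columns and 2.53, 1.66 and 2.90 RPKM in wildtype columns, which checks the labels only in part, as the transgene is a human cDNA.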

How the data were processed

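Members and lists were chosen with earlier results of these data known. RNA was taken from mammary tissue slides, depleted of ribosomal RNA and sequenced as single reads. The authors aligned reads to GRCm38 with TopHat2 (2.0.7) and estimated the deposited RPKM with SAMMate and Ensembl gene models. Whether counting used strand is not given in the sources used here. The deposited table also holds means and log2 fold ratios of the authors, which were not used.

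The columns of a genotype were averaged as 1 sample, so limma, the test meant for replicates, was not run, and genes were called by size with the filter and fold threshold of the study's methods. Reads were recovered from RPKM steps (whole within 1e-05 reads). Ratio intervals are Clopper-Pearson (95%) on pooled reads, and PCR reads without molecular identifiers are not independent molecules. The pseudocount was 1 RPKM. Alternatives were library-size scaling, a trimmed mean, totals without milk genes, pseudocounts of 0.1 and 0.5, other filters, a threshold of 1, and leaving out each column. Recovery and the size rule were tested on simulated data. All members are named, and of the wider list the highest and lowest change of each group. Genes that share exonic bases or have annotated pseudogene copies are uncertain. Python (3.11.15), scipy (1.17.1) and matplotlib (3.10.9) were used. Coordinates are from the reference annotation of GRCm38. The markers Trac and Emr1 were not matched and not used here. The result of 1 marker gene, and of the list it belongs to, is not reported here.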

Additional observations from a re-analysis of the deposited data

How the results depend on the processing

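The call of Mki67 held under a trimmed mean of ratios, pseudocounts of 0.1 and 0.5, no filter, a filter of 5 RPKM, a threshold of 1, split size factors, protein-coding genes alone and without each column in turn, and it was lost under library-size scaling (-1.31) and with totals without milk protein genes (-1.94), with its direction kept. Ccnd2 passed the threshold under library-size scaling (3.06), totals without milk (2.34), pseudocounts of 0.1 (2.21) and 0.5 (2.07) and size factors split over both genotypes (2.02). The last setting and the restriction to protein-coding genes were chosen after seeing the data. The counts of members called higher and lower were thus 1 and 0 under both library-size settings, 1 and 1 under the pseudocounts and split factors, and 1 and 5 at a threshold of 1. Of all genes, 16.1% and 1.23% were called higher and lower under library-size scaling as deposited, and 15.5% and 12.3% at a threshold of 1. The median change of the members was 0.83 as deposited, 0.26 without milk, -0.23 without a filter and 0.13 over the 18 members with at least 5 RPKM. In the wider list the genes called higher were 1 under library size, trimmed mean, no milk, a pseudocount of 0.5 and split factors, and 3 under a pseudocount of 0.1 and a threshold of 1. Those called lower were 1 under a pseudocount of 0.5, 3 under 0.1 and 7 at a threshold of 1, where 15.5% of all genes were called higher and 12.3% lower. For the trimmed mean, totals without milk, other pseudocounts and split factors the share of all genes is not given here. Counts under those settings thus have no background to be read against. Without each column in turn, the members called were 0 higher and 1 lower throughout, the median ranged from -0.12 to -0.02, and the wider list had 0 to 1 higher and 0 lower, with 1 (Cdkn1c) without transgenic column 1 or wildtype column 2. The sign of the change differed from the relative one for 18 members under library size, 6 without milk and 1 under the trimmed mean. The cause of these shifts was not tested beyond the scaling itself. No paired analysis was possible because the columns of a genotype counted as 1 sample and no test was run. The wildtype depth, 3492861 to 3496335 reads a column, limits genes under 2 RPKM most.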
